A study of Mus musculus with 5 samples.

Results

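This is an account of 7 genes that mark the earliest steps of neutrophil differentiation: Mpo, Elane, Prtn3, Ctsg, Ms4a3, Cebpe and Gfi1. They are among 54113 named entries of a table of raw RNA-seq counts from tissue labelled as mouse CRC tumour. They were taken by their symbols, and all 7 passed the filter on low counts that left 16133 genes. They had been chosen by their CPM in these same libraries, high in tumours at 30 °C and low at 4 °C, so the comparison of temperatures is given as a description, with no test. The tumours grew from MC38, a mouse colon carcinoma line, in C57BL/6 mice, which the paper describes as implanted under the skin. Of the 5 libraries, 3 came from mice exposed to 30 °C for 2 weeks and 2 from mice exposed to 4 °C for 2 weeks. Both groups carried the same line, and the labels name no altered gene. They give neither the sex nor the age of the animals, and do not say whether each library came from a single animal.

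Neutrophils are made in the bone marrow, and in mice also in the spleen, from granulocyte and monocyte progenitors that pass through promyelocyte and myelocyte stages. Granules are filled in the order in which their proteins are made: the primary, or azurophil, granules of the promyelocyte receive myeloperoxidase and the neutrophil serine proteases, the secondary and tertiary granules form later, and the transcripts of the primary granule proteins are largely shut off before the cell leaves for the blood. A tissue rich in mature neutrophils can therefore hold much granule protein and little of its mRNA.

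Between 16191708 and 20320525 counts fell on named genes in each library. Levels are given as CPM, counts per 1000000 counts on named genes, and the floor was set at 3 counts, or 0.148 to 0.185 CPM. Pancreatic acinar transcripts (16 genes) made up 24.04% of 30 °C replicate 2, 0.231% of 4 °C replicate 2 and at most 0.00758% of the other 3 libraries. Epithelial genes, 8 in the list, summed to between 18.9 and 121 CPM, whereas 6 B cell genes summed to between 4351 and 10912 CPM and 10 erythroblast genes to between 15777 and 42233 CPM in tissue labelled as tumour. The intestinal epithelial genes Vil1 and Cdx2 had 0 to 4 and 0 to 8 counts, and Epcam stood between 7.905 and 11.43 CPM. Other epithelial genes varied more, with Krt8 from 3.17 to 59.66 CPM, Krt18 from 0.8596 to 37.74 CPM and Cdh1 from 2.256 to 24.37 CPM. Of the genes of splenic mesenchyme, Tlx1 stood between 10.46 and 30.25 CPM, Nkx2-3 between 10.58 and 27.35 CPM and Nkx2-5 between 2.903 and 9.079 CPM. The tissue is called tumour below only as the labels give it. How much of each library was tumour was not tested, and neither was whether the libraries held spleen. The values below therefore belong to the labelled libraries and do not place the primary granule transcripts inside a tumour. Because of the acinar transcripts, results for the primary granule genes are given with and without 30 °C replicate 2 and with its acinar counts removed. In RNA from whole tissue, fewer cells of a type and less RNA per cell cannot be told apart.

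The promoters of the granule genes are shown because the genes varied together across the libraries. RefSeq start sites on GRCm38.p6 gave a window of 250 bases before to 50 bases after the start for 6 of the 7 genes, all but Cebpe, with a pair of alternative windows for Gfi1. Capitals mark GGAAGT, the core letters of many binding sites of ETS factors such as PU.1 (Spi1), or its reverse complement ACTTCC. All sequences run 5′ to 3′ on the strand of the gene. The windows are chr11:87793534-87793833 (plus strand) for Mpo, chr10:79886062-79886361 (plus) for Elane, chr10:79879417-79879716 (plus) for Prtn3, chr14:56102525-56102824 (minus) for Ctsg and chr19:11640802-11641101 (minus) for Ms4a3.
Mpo: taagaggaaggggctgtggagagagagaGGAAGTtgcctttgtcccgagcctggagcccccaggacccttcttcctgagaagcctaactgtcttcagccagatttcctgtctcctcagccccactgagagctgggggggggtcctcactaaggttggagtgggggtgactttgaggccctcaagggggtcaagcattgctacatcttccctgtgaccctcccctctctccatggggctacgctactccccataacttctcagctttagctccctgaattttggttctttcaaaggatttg
Elane: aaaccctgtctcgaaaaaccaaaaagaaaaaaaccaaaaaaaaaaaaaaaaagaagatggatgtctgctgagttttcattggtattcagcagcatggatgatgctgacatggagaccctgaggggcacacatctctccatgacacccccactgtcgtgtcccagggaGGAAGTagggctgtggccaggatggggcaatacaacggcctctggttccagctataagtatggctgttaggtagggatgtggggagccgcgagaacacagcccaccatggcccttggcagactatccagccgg
Prtn3: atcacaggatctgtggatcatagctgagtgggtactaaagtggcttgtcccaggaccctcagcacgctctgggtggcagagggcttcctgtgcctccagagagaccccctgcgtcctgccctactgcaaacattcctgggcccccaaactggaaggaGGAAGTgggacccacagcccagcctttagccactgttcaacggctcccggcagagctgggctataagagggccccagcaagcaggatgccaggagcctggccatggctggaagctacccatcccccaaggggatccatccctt
Ctsg: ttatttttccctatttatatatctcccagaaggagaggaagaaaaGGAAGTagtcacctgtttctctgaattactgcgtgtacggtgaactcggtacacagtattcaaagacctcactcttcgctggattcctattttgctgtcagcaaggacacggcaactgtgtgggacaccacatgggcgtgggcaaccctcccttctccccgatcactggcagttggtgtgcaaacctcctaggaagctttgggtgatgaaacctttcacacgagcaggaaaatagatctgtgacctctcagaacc
Ms4a3: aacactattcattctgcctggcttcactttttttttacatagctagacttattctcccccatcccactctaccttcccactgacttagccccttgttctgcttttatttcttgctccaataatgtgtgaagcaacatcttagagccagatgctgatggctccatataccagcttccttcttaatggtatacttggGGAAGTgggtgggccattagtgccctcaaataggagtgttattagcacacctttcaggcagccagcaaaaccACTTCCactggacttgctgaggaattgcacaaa

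GGAAGT on either strand lay in the windows of 5 of the 6 genes, and in 23.8% of 32851 promoter windows of the same length. Its first base stood at −222 from the start of Mpo, −83 of Elane, −93 of Prtn3, −205 of Ctsg and −55 of Ms4a3, which also held ACTTCC at 17 bases past the start. These distances are from RefSeq starts, which can differ from the GENCODE coordinates given below. In GENCODE Prtn3 begins at 79874476, so its window lies inside the gene. Mpo begins there at 87793581, so most of its window does too. AACGGC, letters found in MYB sites, stood at −55 of Prtn3 and −50 of Elane and in 5.04% of all windows. TGTGGT, the RUNX core, was in the Ctsg window in reverse and in 16.8% of all, and TTGCNNAA, letters of C/EBP sites, was in those of Ms4a3 and Gfi1 and in 10.8% of all. Both strands were searched, no match overlapped another, and the motifs were chosen after the sequences had been seen. These matches describe letters in a window and not bound sites.

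Myeloperoxidase, encoded by Mpo (chr11:87793581-87804413, plus strand, GRCm38), makes hypochlorous acid from hydrogen peroxide and is the most abundant protein of the primary granule. Mpo stood at 745.4 CPM in 30 °C replicate 1, 306.4 in 30 °C replicate 2 and 131.3 in 30 °C replicate 3, against 88.64 and 153.4 CPM in 4 °C replicates 1 and 2. The groups overlapped, because the third tumour at 30 °C lay between the 2 tumours at 4 °C. The mean was 394.4 ± 316.3 CPM (SD, n = 3) at 30 °C and 121.0 ± 45.8 CPM (SD, n = 2) at 4 °C, and the fitted log2 fold change of 4 °C against 30 °C, from edgeR, was −1.82 (SE 0.77). Within the 30 °C group alone, replicate 1 was 5.67 times replicate 3.

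Elane, Prtn3 and Ctsg encode the serine proteases neutrophil elastase, proteinase 3 and cathepsin G, which are stored active in the same granules. Elane (chr10:79886247-79888215, plus strand) stood at 312.8, 150.4 and 58.46 CPM in the tumours at 30 °C and at 45.67 and 88.81 CPM in those at 4 °C, with a log2 fold change of −1.51 (SE 0.76). Prtn3 (chr10:79874476-79883174, plus strand), 3072 bases upstream of Elane, stood at 467.1, 166.8 and 56.35 CPM at 30 °C and at 45.99 and 82.33 CPM at 4 °C, with a log2 fold change of −1.95 (SE 0.92). For both genes 4 °C replicate 2 lay above 30 °C replicate 3, and 30 °C replicate 1 lay far above every other tumour. Ctsg (chr14:56099881-56102574, minus strand) ranged more widely, at 206.3, 75.3 and 22.93 CPM at 30 °C and 16.6 and 29.03 CPM at 4 °C, with a log2 fold change of −2.27 (SE 0.96). Its highest library was 12.4 times its lowest, against 6.85 times for Elane and 10.2 times for Prtn3.

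Ms4a3 (chr19:11629496-11640851, minus strand) encodes a membrane protein of the MS4A family whose mRNA marks granulocyte and monocyte progenitors and promyelocytes. It gave 117.5, 33.32 and 12.11 CPM at 30 °C and 8.005 and 14.02 CPM at 4 °C. Among the 7 genes it had the widest range, with the highest library at 14.7 times the lowest and a log2 fold change of −2.39 (SE 1.0). Again the groups overlapped at 30 °C replicate 3 and 4 °C replicate 2, whose 95% Wilson intervals, 10.68 to 13.72 and 12.31 to 15.97 CPM, also overlapped.

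The transcription factors of the list varied least, with the highest library at 4.26 times the lowest for Cebpe and 2.08 times for Gfi1. C/EBPε, from Cebpe (chr14:54710360-54712174, minus strand), is needed for the step from promyelocyte to myelocyte and for secondary granule genes. Cebpe stood at 57.25, 23.04 and 16.24 CPM at 30 °C and at 13.43 and 19.39 CPM at 4 °C, the same library order as Mpo, with a log2 fold change of −1.08 (SE 0.54). Gfi1 (chr5:107716657-107726036, minus strand), a zinc-finger repressor needed for neutrophil production, stood at 15.56, 11.07 and 8.021 CPM at 30 °C and at 7.575 and 7.473 CPM at 4 °C, with a log2 fold change of −0.77 (SE 0.37). Gfi1 was the only one of the 7 whose groups did not overlap in CPM, and its margin was small: the 95% Wilson interval of 30 °C replicate 3, 6.88 to 9.35 CPM, contained both values at 4 °C. With TMM-scaled CPM, which correct for the composition of each library, the margin was gone, at 7.117 CPM in 30 °C replicate 3 against 7.249 CPM in 4 °C replicate 2.

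**Figure D1:**
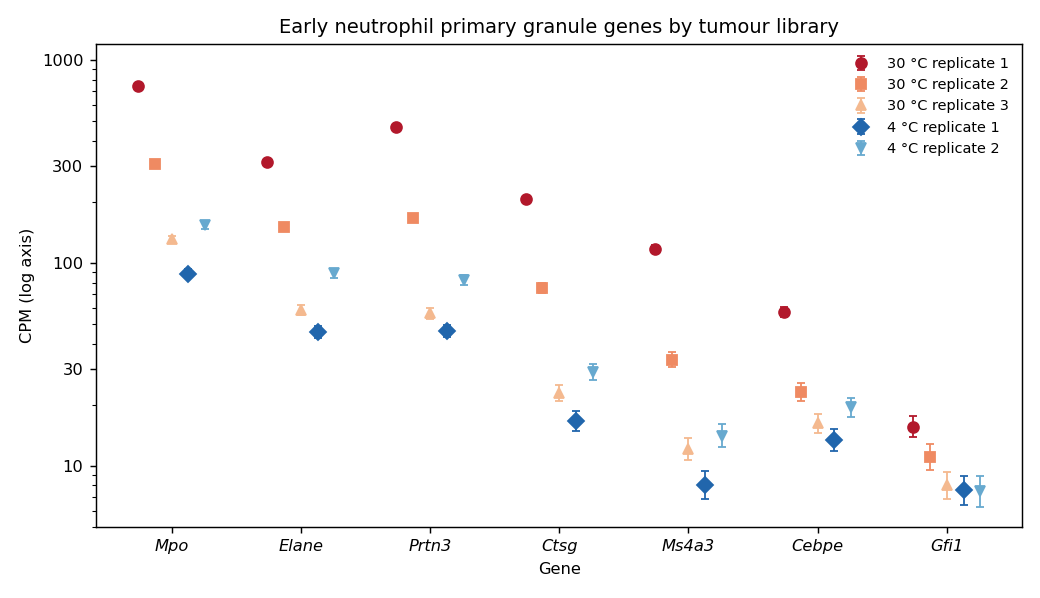
Level of each of the 7 genes in each tumour library, in CPM on a log axis, with a symbol per library and bars for the 95% Wilson interval, which covers counting error only. For every gene 30 °C replicate 1 is highest, from 15.56 CPM for Gfi1 to 745.4 CPM for Mpo, and for all but Gfi1 30 °C replicate 3 lies between the 2 tumours at 4 °C.

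In CPM, 6 of the 7 genes put the tumours in one order: 30 °C replicate 1, 30 °C replicate 2, 4 °C replicate 2, 30 °C replicate 3 and 4 °C replicate 1. Of all tested genes, 0.651% had this order (1.97% in TMM-scaled CPM, where it was again 6 of the 7). The order was read from these genes, which had been chosen by their CPM in these libraries, so nothing is read from the difference. The sum of the 7 genes was 1922, 766.3 and 305.5 CPM in the tumours at 30 °C and 225.9 and 394.5 CPM in those at 4 °C. In this sum, too, 30 °C replicate 3 lay below 4 °C replicate 2. All 7 genes were highest in 30 °C replicate 1 in CPM, as were 24.7% of all tested genes; in TMM-scaled CPM Gfi1 was highest in 30 °C replicate 2. Counting error was small beside this: the half-width of the 95% Wilson interval was at most 4.94% of the value for Mpo and at most 19.5% for Gfi1, the gene with the fewest counts (121 to 272).

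All 7 fitted log2 fold changes were below 0, with a median of −1.82, against a median of 0.01 and 49.3% below 0 over all tested genes. Below −1 lay 6 of the 7, all but Gfi1, and 3.99% of the tested genes. Since the choice of the genes fixed this direction, nothing is read from it. At an adjusted p under 0.05, edgeR's quasi-likelihood test called 0.0% of the tested genes and none of the 7, with 673 genes lower (4.17%) and 417 higher (2.58%) at 4 °C at an unadjusted p under 0.05. The Wald test of DESeq2 called 112 of 15116 genes (0.741%), also none of the 7. Groups did not overlap for 1 of the 7 genes, Gfi1, lower at 4 °C, against 5.41% of all tested genes lower and 11.0% higher in CPM. The spread over the 5 libraries, as the SD of log2 CPM, was larger for all 7 than for most of the tested genes: 92.4% of these had a lower SD than Cebpe, 98.6% a lower SD than Ms4a3 and 80.0% a lower SD than Gfi1. Choosing the genes by their CPM in these libraries favours a wide spread, so nothing is read from it either.

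The fitted difference rested on a pair of tumours at 30 °C. Without 30 °C replicate 1 the median log2 fold change of the 7 genes was −1.17. With 30 °C replicates 1 and 2 both left out, an alternative added after seeing the data, it was 0.10, and the values were −0.01 for Mpo, 0.31 for Elane, 0.29 for Prtn3, 0.10 for Ctsg, −0.03 for Ms4a3, 0.12 for Cebpe and 0.00 for Gfi1. Conversely, in CPM all 7 genes had groups that did not overlap, lower at 4 °C, when either 30 °C replicate 3 or 4 °C replicate 2 was left out, as 7.4% and 11.5% of the tested genes then did. No single library, left out in turn, brought any of the 7 to 0 or above.

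The second of these tumours is the library with pancreatic RNA. Removing the acinar counts from its total raised Mpo there from 306.4 to 403.4 CPM, Prtn3 from 166.8 to 219.6 CPM and Gfi1 from 11.07 to 14.57 CPM, and the tumour kept its place behind 30 °C replicate 1 for all 7 genes. With acinar genes left out of the fit the median log2 fold change was −1.85, and without this library it was −1.83. In 30 °C replicate 1, the tumour with the highest values, acinar transcripts were at 75.8 CPM.

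**Figure D2:**
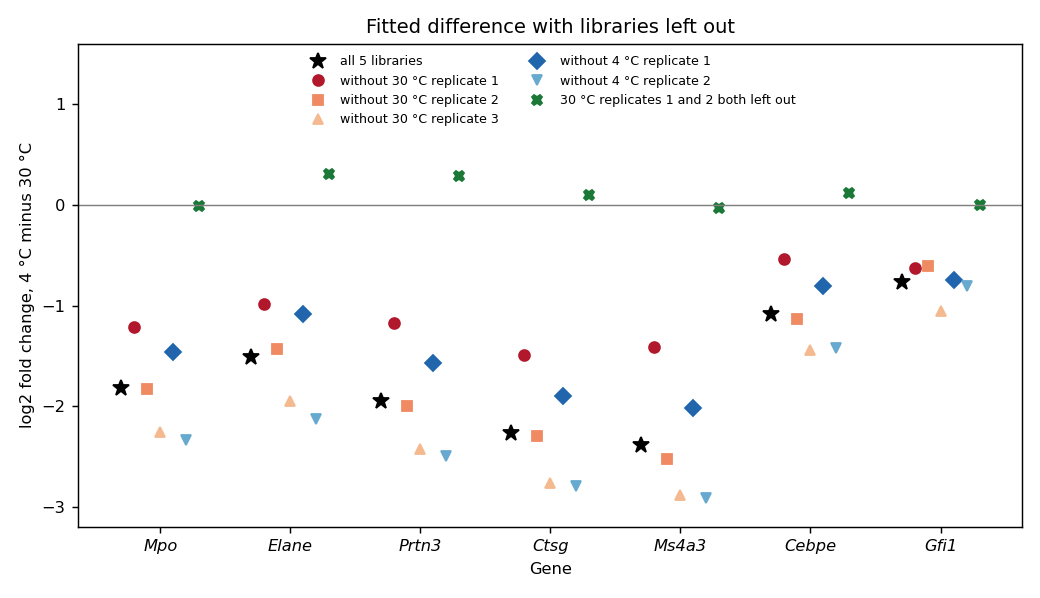
Fitted log2 fold change (4 °C minus 30 °C) of each gene with all 5 libraries (star), with each library left out in turn, and with 30 °C replicates 1 and 2 both left out (green crosses). Values with one library left out run from −2.91 for Ms4a3 to −0.54 for Cebpe, and the crosses lie between −0.03 and 0.31.

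Per length of exon, the order of the genes was close to constant. In CPM per kilobase of exon, Elane was highest in all 5 libraries, with a mean of 133.4, followed by Prtn3 at 94.5, Mpo at 83.2, Ctsg at 67.8, Cebpe at 20.8, Ms4a3 at 19.6 and Gfi1 at 3.1. Gfi1 was lowest in every library. Mpo exceeded Prtn3 in 30 °C replicate 3, at 38.36 against 32.53 CPM per kilobase, and Ms4a3 exceeded Cebpe in 30 °C replicate 1, at 62.35 against 46.13. In that tumour Elane exceeded 98.9% of the tested genes per kilobase, and in 4 °C replicate 1 still 92.3%. For Ms4a3 these shares were 93.9% and 47.0%.

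Ratios between the genes need no scaling between libraries, since both counts come from the same one. Of the ratios to Mpo that of Elane varied least, at 0.42, 0.491 and 0.445 at 30 °C and 0.515 and 0.579 at 4 °C. Ms4a3 over Mpo was 0.158 in 30 °C replicate 1, 0.109 in 30 °C replicate 2 and between 0.0903 and 0.0922 in the other 3 tumours, so that Ms4a3 was over-represented where the whole group was high. Ctsg over Mpo followed the same division, at 0.277 and 0.246 in those tumours and between 0.175 and 0.189 in the others. The factors went the other way: Cebpe over Mpo was 0.0768 and 0.0752 in the first 2 tumours at 30 °C and 0.124 to 0.152 in the rest, and Gfi1 over Mpo ran from 0.0209 in 30 °C replicate 1 to 0.0855 in 4 °C replicate 1. The neighbours Elane and Prtn3 changed places, with Elane over Prtn3 at 0.67 in 30 °C replicate 1 and 1.08 in 4 °C replicate 2. Counting error of these ratios was at most 8.28% for Elane over Mpo and at most 18.2% for Gfi1 over Mpo (95% half-width). Elane over Mpo and Cebpe over Mpo were higher, and Ms4a3 over Mpo lower, in both tumours at 4 °C than in all 3 at 30 °C. In each of these cases the nearest values of the groups, such as 0.0922 against 0.0914 for Ms4a3, lay within counting error.

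**Figure D3:**
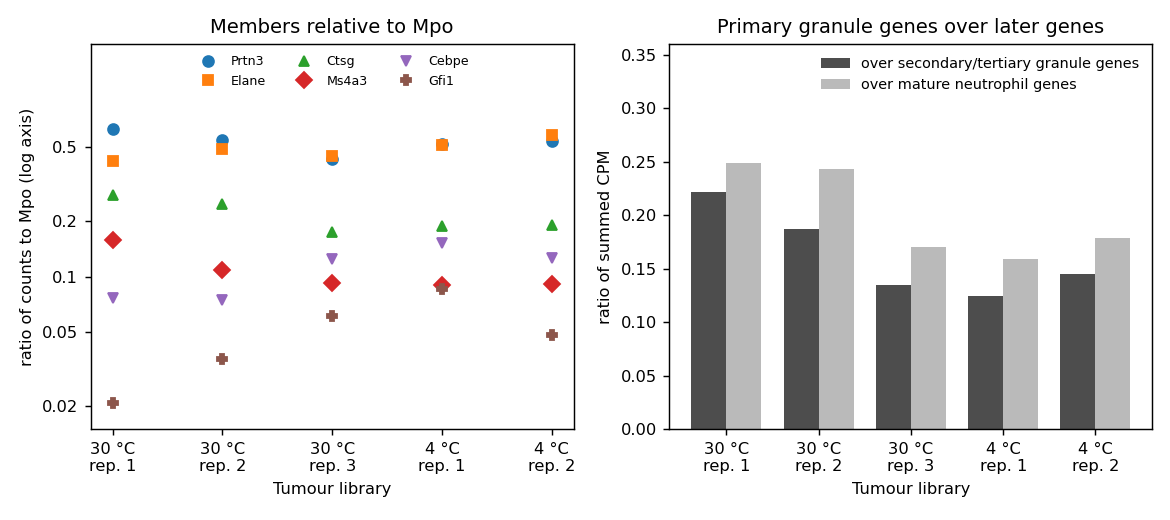
Left, counts of 6 genes divided by those of Mpo in the same library, on a log axis; right, summed CPM of the 7 primary granule genes divided by that of secondary and tertiary granule genes (dark bars) or mature neutrophil genes (light bars). Ms4a3 and Ctsg stand highest against Mpo, and Cebpe and Gfi1 lowest, in the first 2 tumours at 30 °C, where the dark bars reach 0.222 and 0.187 against 0.125 to 0.145 in the other 3.

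Genes of later neutrophil stages varied in the same tumours. The 13 secondary and tertiary granule genes summed to 8662, 4088 and 2266 CPM at 30 °C and to 1809 and 2715 CPM at 4 °C. All 13 had a log2 fold change below 0 (median −1.34), all 13 were highest in 30 °C replicate 1 in CPM (11 in TMM-scaled CPM) and none passed edgeR's test. Ltf, lactoferrin, gave −1.34 (SE 0.55), Ngp −1.17 (SE 0.56), the collagenase Mmp8 −1.79 (SE 0.57) and Itgb2l −1.61 (SE 0.48), with adjusted p between 0.69 and 0.76 by edgeR. Chil3, Itgb2l and Ltf were called when the replicate number was taken as a block, although the labels do not say that the numbers pair the tumours. Of the 12 mature neutrophil genes 10 could be tested, all below 0 (median −1.23) and none past edgeR's threshold. Their sums were 7727, 3152 and 1800 CPM at 30 °C and 1419 and 2203 CPM at 4 °C, with the alarmin S100a9 from 791.4 to 4288 CPM. Of these 13 and 10 genes, 6 and 3 had groups that did not overlap in CPM, lower at 4 °C, as did 5.41% of all tested genes; in TMM-scaled CPM these were 4 and 2 genes, against 11.0% of all. The medians of the lists were −0.79 and −0.56 without 30 °C replicate 1, and −0.07 and −0.12 with 30 °C replicates 1 and 2 both left out.

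As a sum, the primary granule genes differed more between tumours than the later ones. The sum divided by that of the secondary and tertiary granule genes was 0.222, 0.187 and 0.135 at 30 °C and 0.125 and 0.145 at 4 °C, and divided by that of the mature neutrophil genes 0.249, 0.243 and 0.17 at 30 °C and 0.159 and 0.179 at 4 °C. Both ratios were highest in 30 °C replicates 1 and 2, and in both the groups overlapped. The sum does not stand for each gene: the highest library was 4.26 times the lowest for Cebpe and 2.08 times for Gfi1. For the rest of the 7 it was 6.85 to 14.7 times. Among the later genes Lcn2 ran from 133.5 to 1139 CPM and Camp from 214.6 to 554.3 CPM. The 7 were chosen by their CPM in these libraries, so nothing is read from the wider spread of their sum. Cebpe was also set against 4 secondary granule genes: its ratio to Ngp was 0.0218, 0.0165 and 0.0221 at 30 °C and 0.0214 and 0.0209 at 4 °C. The highest of these was 1.34 times the lowest, against 1.44 times for Cebpe over Ltf, 2.01 over Mpo, 2.0 over Lcn2 and 2.11 over Camp.

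**Figure D4:**
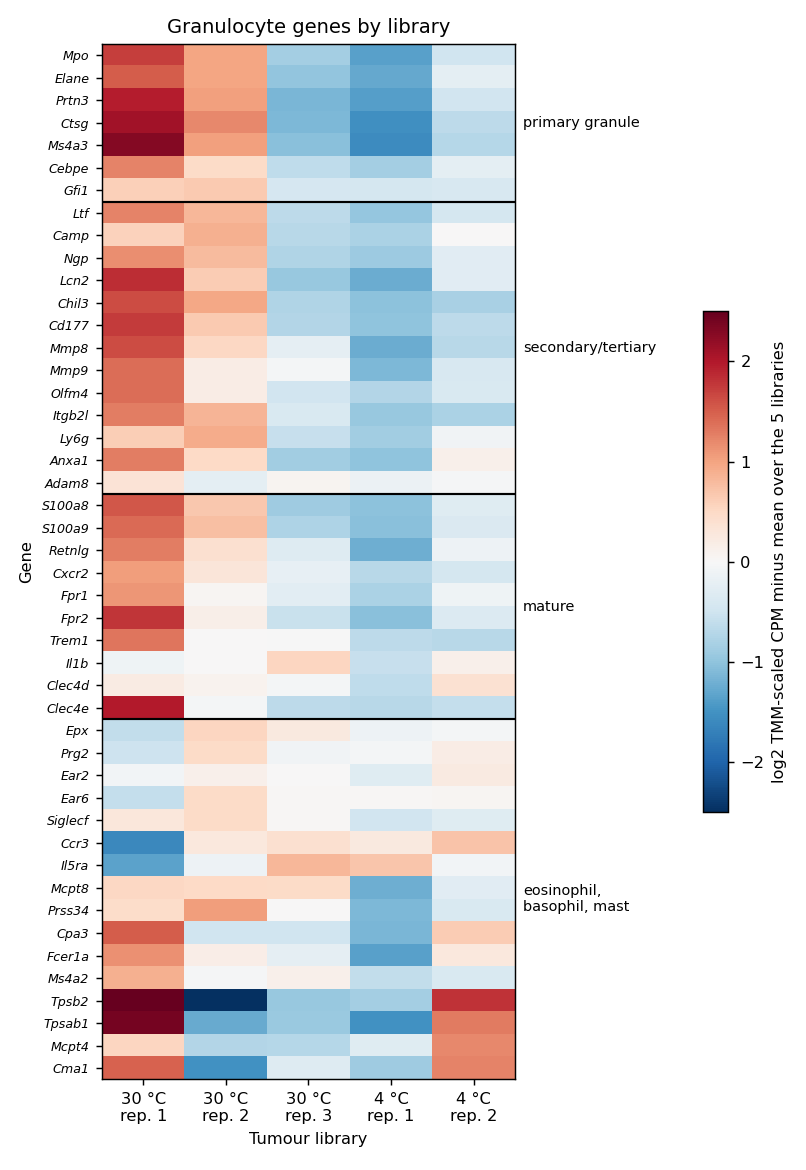
Log2 TMM-scaled CPM of granulocyte genes in each tumour, minus the mean of the gene over the 5 libraries, from low (blue) to high (red); rows are grouped into primary granule, secondary and tertiary granule, mature neutrophil, and eosinophil, basophil and mast cell genes, and values past either end of the scale take its end colour. The first column is red for nearly all neutrophil genes and mixed for the last group, blue for Epx (31.74 CPM against 45.07 to 60.92 in the other tumours), Ccr3 and Il5ra but red for Cpa3 (14.98 CPM) and Tpsb2 (30.77 CPM), with 7 of its 16 genes highest and 5 lowest there in CPM.

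Outside the list, the genes closest to the mean profile of the 7, by root mean square distance of centred log2 TMM-scaled CPM over the 5 libraries, were Cldn15 (0.06), Mapk13 (0.15), S100a8 (0.15), S100a9 (0.16), Hp (0.16), Wfdc21 (0.18), Lcn2 (0.18), Chil3 (0.18), Cd177 (0.19) and Chil1 (0.22). Distances of the 7 themselves ran from 0.09 for Mpo and 0.13 for Elane to 0.37 for Ms4a3 and 0.62 for Gfi1. Cldn15, a tight junction gene, stood at 16.19, 7.197 and 3.002 CPM at 30 °C and 2.095 and 3.706 CPM at 4 °C. Lcn2, which encodes the secondary granule protein lipocalin 2, stood at 1139, 334.1 and 171.3 CPM and at 133.5 and 248.8 CPM. With 5 libraries this likeness is a description of these tumours.

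A mixed list of genes tied to the primary granule, or to the processing and inhibition of its proteases, did not share the profile as a group. In the list of 12 such genes, 10 were highest in 30 °C replicate 1 and 2 had the library order of Mpo in CPM, against 6 and 1 in TMM-scaled CPM. A log2 fold change below 0 was found for 8 of them, and none passed edgeR's test. The median was −0.17, 0.12 without 30 °C replicate 1 and −0.23 without 30 °C replicate 2. Their sums were 5721, 3096 and 4141 CPM at 30 °C and 4327 and 5238 CPM at 4 °C. Lyz2 and Calr, the genes of the list with the highest mean CPM, weighed most in these sums. Prss57, a further serine protease of these granules, had the library order of Mpo, at 16.07, 7.56 and 4.823 CPM at 30 °C and 3.223 and 5.064 CPM at 4 °C (log2 fold change −1.32, SE 0.56). Rab44, a Rab GTPase, was lower in both tumours at 4 °C, at 6.877 and 6.485 CPM against 23.68, 17.78 and 14.81 CPM (−1.64, SE 0.32, adjusted p = 0.69 by edgeR, called by DESeq2). Calr, the chaperone calreticulin, and Lyz2, the lysozyme that macrophages also make, were near 0 at −0.01 (SE 0.25) and 0.22 (SE 0.19).

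The other factors and receptors of granulopoiesis also divided. Of 10 transcription factors, 5 were below 0 and none passed edgeR's test. Their median was −0.03, 0.18 without 30 °C replicate 1 and −0.21 without 30 °C replicate 2. Spi1, which encodes PU.1, gave 0.06 (SE 0.30) and Irf8, which favours the monocyte fate, 0.41 (SE 0.27), while Myb gave −0.73 (SE 0.22) and Gfi1b, the paralogue of Gfi1, −0.91 (SE 0.37). Of 15 cytokines and receptors 12 could be tested, 4 below 0, none past edgeR's threshold. Their median was 0.29, 0.34 without 30 °C replicate 1 and 0.17 without 30 °C replicate 2. Csf3r, the receptor for G-CSF, stood at 95.74, 77.96 and 106.9 CPM at 30 °C and at 44.75 and 60.28 CPM at 4 °C (−0.95, SE 0.21, adjusted p = 0.69 by edgeR, called by DESeq2). Here 30 °C replicate 3, low in the primary granule genes, was the highest tumour in CPM. CPM does not correct for the acinar counts of 30 °C replicate 2. TMM scaling divides by factors of 0.738 for 30 °C replicate 2 and 1.128 for 30 °C replicate 3. After it, 30 °C replicate 2 was the highest. Csf3, the ligand, had 0 counts in 4 libraries and 0.0618 CPM in 4 °C replicate 2, under the floor. Cxcl12, which retains neutrophils in the marrow, gave 0.62 (SE 0.19), Csf1 0.82 (SE 0.24) and Csf1r 0.27 (SE 0.22).

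Lists of other blood cells divided within themselves. The 16 genes of eosinophils, basophils and mast cells summed to 409.0, 454.7 and 542.5 CPM at 30 °C and to 478.0 and 573.8 CPM at 4 °C. Their median log2 fold change was −0.32, −0.16 without 30 °C replicate 1 and −0.45 without 30 °C replicate 2. In 30 °C replicate 1 the sum was lowest, while 7 of the 16 genes were highest there and 5 were lowest. Prg2, a major eosinophil granule protein, gave 0.05 (SE 0.30), and the basophil proteases Mcpt8 and Prss34 −1.21 (SE 0.38) and −1.29 (SE 0.41). The 8 monocyte genes summed to 829.1, 481.0 and 616.2 CPM at 30 °C and 458.5 and 502.0 CPM at 4 °C, with 5 of the 8 highest in 30 °C replicate 1. Their median was −0.46, −0.17 without that library and −0.56 without 30 °C replicate 2. The acinar counts of 30 °C replicate 2 lower its sum in CPM. Groups of 3 of the 8 genes did not overlap in CPM, lower at 4 °C, against 5.41% of all tested genes. In TMM-scaled CPM it was 4 of the 8, against 11.0% of all. Smallest in p among the monocyte genes were F13a1 (log2 fold change −1.65, SE 0.48) and Ly6c2 (−0.81, SE 0.27). The 8 genes of blood stem cells and progenitors had a median of −0.10, 0.04 without 30 °C replicate 1 and −0.09 without 30 °C replicate 2. Among them Kit gave −0.65 (SE 0.23) and Flt3 0.30 (SE 0.35). No gene of these lists passed edgeR's test; F13a1 was called by DESeq2 and with the replicate block.

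Lists for the other cells in the tissue are given by their medians, and no gene of theirs passed edgeR's test. DESeq2 called Mki67 and Top2a. The median log2 fold change was −0.24 for 10 erythroblast genes, 0.71 for 6 B cell genes, 0.75 for 3 genes of splenic mesenchyme and −0.85 for 6 epithelial genes. The 16 acinar genes had a median of −6.56, which became 5.74 over 14 genes without 30 °C replicate 2, and the epithelial median became 0.67 over 5 genes. Without 30 °C replicate 1 the B cell median was 0.44 and the erythroblast median −0.14, and without 30 °C replicate 2 the latter was −0.05. Several acinar genes were called with the replicate block. B cell genes summed to 5474 and 4351 CPM in 30 °C replicates 1 and 2 and to between 9736 and 10912 CPM in the other 3 tumours, the opposite division to the primary granule genes. All 12 cell cycle genes were below 0 (median −0.64), with Mki67 at −1.10 (SE 0.27) and Top2a at −0.80 (SE 0.20). Groups did not overlap in CPM, lower at 4 °C, for 9 of the 12, against 5.41% of all tested genes. In TMM-scaled CPM it was again 9, against 11.0% of all. The smallest margin among the 9 in CPM was 59.85 at 4 °C against 59.87 at 30 °C. The sum of the 12 was 2325, 1980 and 2186 CPM at 30 °C and 1347 and 1414 CPM at 4 °C. In this sum 30 °C replicate 3 lay with its own group, and for the primary granule genes it did not. The part of these other cells in the values of the primary granule genes was not tested.

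Relatives of the 7 genes were checked because reads from close copies can be shared out. Of 19 paralogues 16 could be tested, 10 below 0 (median −0.20), none past edgeR's threshold. The eosinophil peroxidase Epx, a relative of Mpo, gave −0.22 (SE 0.34), and the lactoperoxidase gene Lpo, 2014 bases from Mpo, had 3 to 9 counts. Granzyme B (Gzmb) gave −0.77 (SE 0.22) and Cebpg −0.18 (SE 0.18). Ms4a1, the B cell member of the MS4A family, gave 0.71 (SE 0.46), and Ms4a2, 5776 bases from Ms4a3, stood between 1.07 and 3.26 CPM. Of the tested neighbours outside the 7, Tspoap1 beside Mpo gave −0.92, Mcpt8 beside Ctsg −1.21 and Ms4a2 −0.95. Slc7a8 beside Cebpe gave −1.27 and Evi5 beside Gfi1 −0.67. Ptbp1, on the other side of Prtn3 from Elane, gave −0.06, with 247.0 to 424.2 CPM. Above 0 were Rpap2 beside Gfi1 at 0.19 and Cfd at 0.26. Cfd, 2637 bases past Elane, had 0 counts in 30 °C replicates 1 and 3 and 150, 128 and 53 counts in 30 °C replicate 2 and 4 °C replicates 1 and 2. Ctsg lay between Mcpt8 and Gzme, and Gzme had 0 counts in every library.

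Exons of 3 of the genes overlap a gene on the opposite strand, and the sources do not give the strand setting of the counting, so shared reads cannot be told apart. Mpo shares 512 exonic bases with Gm11505, which had 0 to 7 counts. Gfi1 shares 101 bases with A430072P03Rik, which had 8 to 18 counts. Prtn3, with 856 to 8167 counts, shares 159 bases with Plppr3, which had 271, 80 and 70 counts at 30 °C and 51 and 61 at 4 °C. These counts do not tell how many reads from the shared bases were counted for Prtn3. Plppr3 itself gave a log2 fold change of −1.37. It had the library order of Mpo, at 15.5, 4.838 and 3.445 CPM at 30 °C and 2.74 and 3.767 CPM at 4 °C.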

How the data were processed

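The deposited table gives counts per gene for 5 tumours. Per the study's methods, the authors counted aligned reads with featureCounts 2.0.0 on Gencode vM19, while the submitters' processing notes name fastp, HISAT, RSEM and GRCm38; all values are whole numbers and were used as raw counts. Entries without a name held 0.0101% to 0.0170% of the counts and were left out. The strand setting is not given in the sources used here, and whether tumours were pooled or prepared in batches is not stated, so p-values measure only the spread between these libraries. The filterByExpr function of edgeR 4.0.16 (R 4.3.3) removed low genes, and the rest were scaled by TMM and compared by a robust quasi-likelihood test, with Benjamini-Hochberg adjustment over 16133 genes. Each SE of a log2 fold change was derived from this test, as its absolute value divided by the square root of the F statistic. Alternatives included DESeq2 1.42.0, other scalings and filters, a replicate block and each library left out. Log2 CPM had a prior count of 2. Intervals cover counting error only.

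The 7 genes and all gene lists were chosen with earlier results of these data known, and the removal of 30 °C replicates 1 and 2 and the use of TMM-scaled CPM for overlap were added after seeing the data. Named genes are the 7, the 2 tested genes with the smallest p and the 2 with the highest mean CPM of each list, the 10 genes nearest to the mean profile of the 7 and their neighbours in the annotation. Genes from outside the rule (Epx, Csf3, Ccr3, Il5ra, Cpa3, Tpsb2, Camp, Epcam, Vil1, Cdx2 and the genes that overlap exons of the 7) were chosen after their values were seen. Coordinates come from GENCODE M21 and promoters from RefSeq on GRCm38.p6.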

Additional observations from a re-analysis of the deposited data

How the results depend on the processing

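The log2 fold changes of the 7 genes were below 0 under 13 other settings, and with 1 library left out their median ran from −2.34 to −1.17. With 30 °C replicates 1 and 2 both left out the median was 0.10, and the sign changed for Elane (0.31), Prtn3 (0.29), Ctsg (0.10) and Cebpe (0.12), with −0.01 for Mpo, −0.03 for Ms4a3 and 0.00 for Gfi1. That setting leaves 1 tumour at 30 °C, which is assumed to vary like those at 4 °C, and leaving out a tumour at 4 °C likewise leaves 1. The number of the 7 genes without overlap, 1 in CPM, was 0 under RLE, upper-quartile and TMM scaling, where 11.6%, 9.06% and 11.0% of all tested genes were lower without overlap. It was 1 to 7 with a library left out (6.9% to 17.5% of all), with 7 both without 30 °C replicate 3 (7.4%) and without 4 °C replicate 2 (11.5%). Genes called over the whole table, 0 with edgeR, numbered 112 with DESeq2, 44 with the replicate block and 15 with 30 °C replicates 1 and 2 left out, none of them among the 7. Of the other lists 5 genes were called with DESeq2 (Csf3r, F13a1, Mki67, Rab44 and Top2a), 15 with the replicate block (Chil3, Itgb2l, Ltf, F13a1 and otherwise acinar genes) and 1, Cfd, with those 2 libraries left out. The cause was not tested. The labels do not say whether the replicate numbers pair the tumours. Deviations from the group means correlated at −0.255 for the replicates numbered 1 and 0.259 for those numbered 2. The deviations of the 2 libraries at 4 °C mirror each other, so these values are not independent checks and cannot settle pairing. With 3 and 2 tumours and 1 library holding 24.04% pancreatic counts, the number of tumours, and not the depth of at least 121 counts per gene, limits what can be said of the 7 genes.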
